A study of Rattus norvegicus with 22 samples.

Results

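Microbeam radiation therapy (MRT) splits a synchrotron X-ray beam into parallel micrometer-wide beams that carry a high dose, separated by valleys that carry a low dose. The data described here are the 11 arrays of contralateral brain, the hemisphere opposite a 9L gliosarcoma, out of 22 arrays in the series. They were chosen by their sample labels alone: 5 rats without irradiation (rats 1 to 5) and 6 rats treated with MRT (rats 6 to 11). All 11 rats, the untreated ones included, were male Fischer rats, 8 weeks old on arrival, that received 9L cells in the right caudate nucleus 1 week later. The MRT rats were irradiated 10 days after implantation, from the right to the left side, with 50 µm beams spaced 200 µm apart, and the brains were taken 6 h later. The microbeam dose of 400 Gy and the valley dose of 18 Gy are those stated for the depth of the tumor, and no separate figure is stated for the opposite hemisphere. Contralateral tissue was punched from frozen coronal sections, so each array holds a mixture of all cells of the punched area, and brain of rats without a tumor is not part of the comparison. The other 11 arrays are the 9L tumors of the same rats and serve only for the tissue comparison at the end.

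Normal brain tissue holds neurons, oligodendrocytes, astrocytes, microglia and vessels whose endothelium forms the blood-brain barrier through tight junctions and efflux pumps. Ionizing radiation stabilizes the transcription factor p53, which drives genes for cell cycle arrest, apoptosis and repair. Tissue injury also activates NF-kB, a factor that is held in the cytoplasm by inhibitor proteins which it induces itself, and interferons, which act through JAK kinases and STAT factors on genes with interferon response elements. Microglia, the resident macrophages of the brain, are known by surface genes such as Tmem119 and P2ry12, whereas blood neutrophils and monocytes carry granule and trafficking genes.

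Each gene is given as its brightest probeset, and values of single rats are log2 array signals. Genes called higher or lower passed limma at a false discovery rate (FDR) of 5% over 31042 probesets, and fold changes are MRT against untreated with the standard error (SE) of the log2 value, n = 5 and 6 rats. The 25th percentile of all signals lies at a log2 signal of 5.88, and folds of genes with a group mean below it rest on low signals.

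Of the 11 arrays, 4 stood apart in tissue content. Untreated rat 1 had a log2 signal of 7.83 for Ttr, the transthyretin gene of the choroid plexus, against 13.46 to 14.92 in the other 10 rats. The mean log2 signal of 20 genes of striatal projection neurons was 11.18 in MRT rat 7, 10.59 in untreated rat 3 and 10.51 in MRT rat 9, and 9.26 to 9.83 in the other 8 rats. Hbb, a hemoglobin chain that reports residual blood, ran from 9.73 to 13.37 over the untreated rats and from 10.06 to 13.26 over the MRT rats. Rats 7 and 3 also had the widest drop of beta-actin from the 3′ to the 5′ probeset, a measure of RNA integrity, at −2.07 and −2.0 against −1.62 to −0.98 in the others. That gap did not separate the groups (exact two-sided permutation test over 462 splits, p = 0.695), and neither did the same gap for the labelling controls (p = 0.946). The part of these differences in single results was not tested, and counts without rat 7 are given where they change what a list shows.

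The promoters of 6 genes are printed because the interferon-stimulated and NF-kB genes were the lists with the largest shares of genes called, and their control elements can be read in the sequence. All 6 hold a match, which not all called genes of these lists do. Each printed sequence is the 250 bases before the RefSeq start of the gene (build GRCr8), 5′ to 3′ on the strand of the gene. Capitals mark an interferon-stimulated response element type match (GAAA, any 2 bases, then GAAA) in Gbp2, Ifit3 and Rsad2, a STAT type match (TTCNNNGAA) in Irf1, and a kappaB type match (GGG, any 2 bases, then TTTCC) in Nfkbia and Nfkb2, each searched on both strands.
Gbp2, chr2:234005477-234005726, plus strand: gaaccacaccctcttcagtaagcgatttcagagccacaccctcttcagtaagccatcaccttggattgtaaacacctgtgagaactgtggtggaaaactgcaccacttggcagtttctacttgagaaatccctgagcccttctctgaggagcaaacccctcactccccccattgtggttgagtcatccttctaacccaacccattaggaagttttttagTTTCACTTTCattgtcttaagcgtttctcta
Ifit3, chr1:241527076-241527325, plus strand: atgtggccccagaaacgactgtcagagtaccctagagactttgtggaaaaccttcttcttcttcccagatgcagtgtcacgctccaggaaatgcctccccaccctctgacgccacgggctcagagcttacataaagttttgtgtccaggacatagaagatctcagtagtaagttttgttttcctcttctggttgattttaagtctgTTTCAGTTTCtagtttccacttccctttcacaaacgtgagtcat
Rsad2, chr6:48788121-48788370, minus strand: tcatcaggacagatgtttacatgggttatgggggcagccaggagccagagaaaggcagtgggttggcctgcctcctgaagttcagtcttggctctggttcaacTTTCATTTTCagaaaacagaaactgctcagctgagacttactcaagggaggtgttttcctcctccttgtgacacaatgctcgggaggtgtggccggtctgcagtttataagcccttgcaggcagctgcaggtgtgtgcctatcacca
Irf1, chr10:38417685-38417934, plus strand: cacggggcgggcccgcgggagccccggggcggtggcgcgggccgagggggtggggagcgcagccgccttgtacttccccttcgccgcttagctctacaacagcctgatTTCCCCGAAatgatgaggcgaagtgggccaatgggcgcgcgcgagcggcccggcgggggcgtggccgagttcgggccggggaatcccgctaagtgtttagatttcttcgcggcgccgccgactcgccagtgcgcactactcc
Nfkbia, chr6:78597073-78597322, minus strand: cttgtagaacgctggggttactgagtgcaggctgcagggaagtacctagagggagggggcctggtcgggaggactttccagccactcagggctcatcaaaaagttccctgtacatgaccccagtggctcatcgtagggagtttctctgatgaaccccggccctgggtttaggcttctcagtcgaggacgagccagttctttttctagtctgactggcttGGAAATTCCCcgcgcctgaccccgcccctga
Nfkb2, chr1:255108124-255108373, plus strand: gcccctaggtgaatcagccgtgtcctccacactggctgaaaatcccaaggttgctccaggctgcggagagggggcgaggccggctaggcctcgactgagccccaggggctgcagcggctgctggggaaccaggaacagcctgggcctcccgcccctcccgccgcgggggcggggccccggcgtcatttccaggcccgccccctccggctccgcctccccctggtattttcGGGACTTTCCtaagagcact

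The response element letters of interferon-stimulated genes were present in 11 of the 18 such genes that were called higher and had a promoter entry (61.1%), against 3.29% of 27457 promoters. Among genes of the same list that were not called, 1 of 3 held them. The kappaB letters were present in 3 of 9 called NF-kB genes (33.3%), namely Nfkbia, Nfkb2 and Nfkbiz, and in 1.28% of all promoters. They stood in 4 of 16 chemokine genes called higher (25%) and in 1 of 13 not called. The STAT letters stood in 7 of the 18 interferon-stimulated genes (38.9%) and in 7.52% of all promoters. In the 11 p53 targets that were called and had an entry, 0 held any of the 3 motifs. Among antigen presentation genes the response element letters stood in 5 of 12 called higher and 4 of 10 not called. The kappaB letters stood in 3 of 12 and 2 of 10 of these genes. The STAT letters stood in 1 of 16 chemokine genes called higher and 3 of 13 not called. The interferon-stimulated and NF-kB lists gather genes known to respond to these factors, so their high shares are a description and no test. The shares in chemokine and antigen presentation genes were not tested either. A match describes the letters of the window, not a bound site.

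At 6 h after MRT 787 of 13699 genes (5.74%) were called, 599 of them higher (4.37%) and 188 lower (1.37%), from 1272 of 31042 probesets (4.1%). Most differed by less than 2-fold. Among the genes called higher, 146 differed by less than 1.5-fold, 183 by 1.5- to 2-fold, 176 by 2- to 4-fold and 94 by at least 4-fold, and among those called lower the same bands held 79, 70, 31 and 8. The median log2 fold change over all genes was −0.00, with 5th and 95th percentiles of −0.31 and 0.45. As the genes were called on these samples, overlap is a description only: in 583 of the 787 genes the untreated and MRT rats did not overlap, and without rat 7 this held in 726. The quartile of genes with the highest signal contributed 69 higher and 12 lower calls, and the second lowest quartile 246 and 100. Of 75 lists of cell types and functions, 60 held at least 1 called gene, 42 with more higher than lower calls and 13 with more lower. The lists were chosen with earlier results of these data known, so the shares called per list are a description and no test.

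The main cell populations of brain differed widely in how many of their markers were called, as the plot of marker lists shows. Neurons and oligodendrocytes gave almost none. Of 72 genes in the 4 neuron lists 1 was called, lower, and 68 lay within 1.5-fold of untreated, with a median log2 fold change of −0.05. That gene, Dlx1, a homeobox factor of forebrain interneurons, was at 9.76, 9.56, 9.78, 9.66 and 9.65 in the untreated rats and between 9.13 and 9.54 (median 9.27) in the MRT rats, 1.31-fold lower (log2 −0.39 ± 0.09, adjusted p = 0.0236). The groups did not overlap, but the call was lost in 7 of the 11 fits that each left out 1 rat, those without rats 1, 3, 4, 5, 9, 10 or 11 (adjusted p up to 0.0729).

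**Figure D1:**
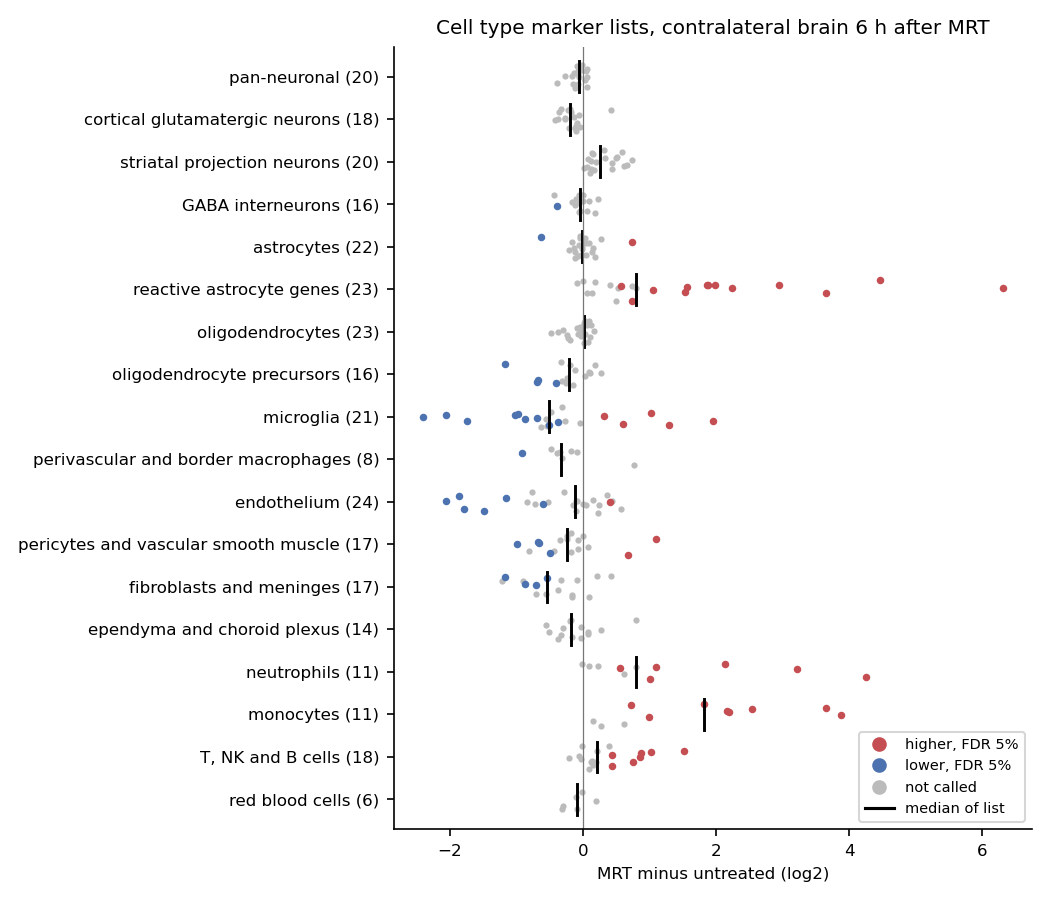
Log2 fold change (MRT minus untreated, 5 and 6 rats) of every measured gene in 18 cell type lists, with the number of genes in parentheses. Red and blue points passed limma at an FDR of 5%, gray points did not, and the black bar is the list median. Blue points gather in microglia, endothelium, mural cells and fibroblasts, red points in neutrophils, monocytes, T, NK and B cells and reactive astrocyte genes. Neuron and oligodendrocyte lists hold almost no called genes, with the striatal median above 0 and the cortical median below it.

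Striatal projection neuron genes had the highest median of the neuron lists (0.26, 20 of 20 genes positive, 0 called by limma or by SAM, a permutation-based method, 0 at an unadjusted p under 0.05), with striatal content highest in MRT rat 7 as given above. Ppp1r1b, the dopamine-regulated phosphatase inhibitor DARPP-32, showed the spread of that list, from 10.45 to 12.20 in the untreated and 10.63 to 13.18 in the MRT rats. Of 18 genes of cortical glutamatergic neurons 17 were negative (median −0.19), with 0 called by limma or SAM and 3 at an unadjusted p under 0.05. The mean log2 signal of this cortical list was 10.39 to 10.51 in the untreated and 10.14 to 10.38 in the MRT rats, without overlap. In oligodendrocytes 0 of 23 genes were called by limma or SAM (2 before adjustment at p under 0.05), with a median of 0.01. For comparison, 15.5% of all genes had an unadjusted p under 0.05.

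Microglia genes split. Of 21 genes 9 were called lower and 5 higher (median −0.51). Without rat 7 14 were lower and 5 higher, and in the fits that left out any other rat but 3 or 4, 6 to 8 were lower and 3 higher. Gpr34, a lysophosphatidylserine receptor of resting microglia, stood at 7.74, 7.36, 6.94, 6.98 and 8.02 in the untreated rats and between 4.95 and 5.67 (median 5.34) after MRT, 4.16-fold lower (log2 −2.06 ± 0.20, adjusted p = 3.14e-05), with the MRT mean below the 25th percentile of signals. All 6 MRT rats lay below all untreated rats. Sall1, a transcription factor that keeps microglial identity in mice, was at 8.58, 8.75, 9.00, 8.63 and 8.88 and then between 7.31 and 8.30 (median 7.78), 1.96-fold lower (log2 −0.97 ± 0.16, adjusted p = 0.00287), again without overlap.

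Tmem119 and Csf1r were called lower although rat 7 lay inside the untreated range of both. Tmem119 had values of 8.89, 9.10, 9.28, 8.99 and 8.72 in untreated rats and of 6.51 to 8.97 (median 7.10) after MRT, and the 8.97 was rat 7 (3.35-fold lower, log2 −1.75 ± 0.35, adjusted p = 0.0102). Without rat 7 its log2 fold change was −2.09. Csf1r, the receptor that microglia need to survive, ran from 9.40 to 9.85 untreated and from 8.20 to 9.57 after MRT, the last again rat 7 (2.02-fold lower, log2 −1.02 ± 0.21, adjusted p = 0.0108). Trem2, Cx3cr1, Aif1, P2ry12 and Slco2b1 completed the genes called lower.

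The 5 microglia genes called higher were Irf8, Gpr84, Cd68, Ptprc and Itgam, which blood monocytes also express. Irf8, an interferon regulatory factor of the myeloid lineage, rose from 7.03, 7.34, 7.28, 7.23 and 7.14 to between 8.27 and 8.68 (median 8.52), 2.45-fold (log2 1.29 ± 0.09, adjusted p = 1.61e-06). Its 6 MRT values, rat 7 at 8.41 among them, lay above all untreated ones. Cd68, a lysosomal glycoprotein of phagocytes, was at 6.60, 6.61, 6.91, 6.92 and 6.41 and then at 7.10 to 7.65 (median 7.22), 1.52-fold higher (log2 0.61 ± 0.13, adjusted p = 0.0138). Ptprc, the leukocyte antigen CD45, was at 6.25 to 7.26 untreated, 6.38 in MRT rat 7 and up to 9.38 in the others, and its call (3.88-fold, log2 1.95 ± 0.45, adjusted p = 0.0247) was lost in 9 of the 11 fits that left out 1 rat, all but those without rats 4 and 7 (adjusted p up to 0.0661). In punched tissue, fewer cells of a type and less RNA of its genes per cell cannot be told apart. Of the 8 perivascular and border macrophage genes 1, Mrc1, was called, 1.90-fold lower (log2 −0.92 ± 0.19, adjusted p = 0.0124), and without rat 7 4 were lower and 1 higher.

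Genes of blood leukocytes rose in part. Of 39 genes in the 3 leukocyte lists 21 were called higher and 0 lower, with a median log2 fold change of 0.62. By list these were 6 of 11 neutrophil genes, 8 of 11 monocyte genes and 7 of 18 genes of T, NK and B cells. Some of the calls rest on low signals, with a mean log2 signal over all rats below the limit of 5.88. Such T, NK and B cell genes were Cd3d (5.75), Prf1 (5.78), Gzmb (5.78) and Klrd1 (4.58). Such neutrophil and monocyte genes were Cxcr2 (5.57), Mmp8 (5.35) and Ccr2 (4.97). The remaining called T, NK and B cell genes were Cd3g, Cd2 and Lck, with a log2 fold change of 0.44 for both Cd2 and Lck. S100a9, a calcium-binding protein that fills neutrophil cytosol, was at 6.23, 5.81, 6.15, 6.30 and 5.93 untreated and at 6.69 to 11.48 (median 10.99) after MRT, 19.1-fold higher (log2 4.26 ± 0.69, adjusted p = 0.00212). Rat 7 held the lowest MRT value, 6.69, and the other 5 MRT rats lay at 10.63 or more.

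The same rat was the lowest for monocyte and T cell genes. Plac8, a gene of inflammatory monocytes, had untreated values of 6.32, 6.43, 7.09, 6.39 and 6.17 and MRT values of 7.69 (rat 7) to 11.29 (median 10.79), 14.8-fold higher (log2 3.88 ± 0.52, adjusted p = 0.000448) and without overlap. Fcnb, a ficolin of myeloid cells, stayed at 6.69 in rat 7 inside the untreated range of 6.57 to 6.94, while the other MRT rats were at 9.38 to 10.12 (5.85-fold, log2 2.55 ± 0.50, adjusted p = 0.00871). Cd3g, a chain of the T cell receptor complex, was at 5.64, 5.98, 6.13, 6.19 and 6.29 and then at 6.38 (rat 7) to 8.23 (median 7.71), 2.87-fold higher (log2 1.52 ± 0.27, adjusted p = 0.00415). Of the hemoglobin and other red cell genes 0 of 6 were called by limma or SAM (0 before adjustment at p under 0.05, median −0.10).

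Barrier genes of brain vessels were called mostly lower. Of 27 genes of blood-brain barrier transporters and junctions 9 were called lower and 2 higher (median −0.35), and without rat 7 14 were lower and 2 higher. Abcg2, an efflux pump of the luminal membrane, was at 10.22, 9.87, 9.69, 9.44 and 9.81 in the untreated rats and at 7.14 to 8.54 (median 7.35) in the MRT rats, 4.79-fold lower (log2 −2.26 ± 0.22, adjusted p = 3.29e-05). Abcb1a, which encodes the efflux pump P-glycoprotein, was at 9.89, 9.64, 9.42, 9.58 and 9.56 and then at 6.61 to 8.82 (median 7.43), 4.46-fold lower (log2 −2.16 ± 0.30, adjusted p = 0.000728). For both pumps the groups did not overlap and rat 7 had the highest MRT value.

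The junction genes Ocln and Cldn5 fell as well. Ocln, the tight junction protein occludin, was at 8.62, 8.71, 8.52, 8.11 and 8.50 untreated and at 6.32 to 7.31 (median 6.75) after MRT, 3.11-fold lower (log2 −1.64 ± 0.17, adjusted p = 6.31e-05). Cldn5, the main claudin of brain endothelium, was at 11.23, 10.97, 11.16, 10.89 and 11.15 and then at 9.18 to 10.67 (median 9.86), 2.24-fold lower (log2 −1.16 ± 0.20, adjusted p = 0.00338). Slco1c1, which carries thyroid hormone across the barrier, was at 10.83, 11.02, 10.60, 10.66 and 11.15 and then at 9.10 to 10.07 (median 9.28), 2.74-fold lower (log2 −1.45 ± 0.17, adjusted p = 0.000113). None of these 3 genes overlapped between groups. Slco1a4, Slco2b1, Slc40a1 and Slc22a8 completed the 9 genes called lower.

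Slc16a1, the lactate carrier MCT1, was among the barrier genes called higher. It rose from 10.35 to 10.64 untreated to 10.81 to 11.34 after MRT, 1.63-fold (log2 0.70 ± 0.10, adjusted p = 0.000942), and the groups did not overlap.

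Endothelial identity genes were called in part, mostly lower. Of 24 genes 6 were called lower (Emcn, Tek, Cldn5, Sox18, Sox17 and Ptprb), 1 was called higher and 17 were not called. The list median was −0.12, with 16 genes negative and 8 positive. Without rat 7 10 were lower and 2 higher. Emcn, a sialomucin of veins and capillaries, was at 9.16, 9.26, 9.14, 9.06 and 9.16 in untreated rats and at 6.58 to 7.85 (median 7.03) after MRT, 4.17-fold lower (log2 −2.06 ± 0.18, adjusted p = 8.77e-06). Tek, the angiopoietin receptor TIE2, was at 8.99, 9.09, 8.73, 8.83 and 9.05 and then at 6.82 to 8.51 (median 7.42), 2.79-fold lower (log2 −1.48 ± 0.23, adjusted p = 0.00157). Groups did not overlap for either, whereas for Sox17, an endothelial transcription factor (3.47-fold lower, log2 −1.79 ± 0.34, adjusted p = 0.00719), rat 7 at 7.19 exceeded the lowest untreated rat at 7.17.

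Angpt2, which is released by activated endothelium and antagonizes TIE2, changed the other way. Its values were 6.93, 6.87, 6.75, 6.21 and 6.99 in the untreated rats and 7.75 (rat 7) to 10.30 (median 10.01) in the MRT rats, 7.20-fold higher (log2 2.85 ± 0.38, adjusted p = 0.000469). Kdr, the receptor VEGFR2, was 1.33-fold higher (log2 0.41 ± 0.10, adjusted p = 0.0363) with overlapping groups, and that call was lost in 8 of the 11 fits that left out 1 rat, all but those without rats 2, 7 or 9 (adjusted p up to 0.11). Sox7, a SOX factor of the same subfamily as Sox17 and Sox18, was 2.16-fold higher (log2 1.11 ± 0.23, adjusted p = 0.0112), at 6.78 to 7.68 untreated and 7.37 to 8.84 after MRT.

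Mural cell and fibroblast genes were called lower in part. Of 17 genes of pericytes and vascular smooth muscle 4 were called lower (Tbx18, Abcc9, Vtn and Myh11) and 2 higher (Des and Mcam), and without rat 7 7 were lower. Vtn, vitronectin, a pericyte marker, was 1.98-fold lower (log2 −0.99 ± 0.20, adjusted p = 0.0106), with rat 7 at 9.10 inside the untreated range of 8.95 to 9.48 and the other MRT rats at 8.16 or less. Des, the muscle intermediate filament desmin, rose from 7.50, 7.64, 8.04, 7.61 and 7.52 to between 8.40 and 8.99 (median 8.81), 2.15-fold (log2 1.10 ± 0.12, adjusted p = 8.91e-05), without overlap. Of 17 fibroblast and meningeal genes 4 were called lower (Dcn, Lum, Fmod and Slc6a13), with 7 without rat 7, 1 without rat 2 and 2 without rats 1, 3, 6, 9 or 11. Lum, a matrix proteoglycan, was 2.26-fold lower (log2 −1.18 ± 0.25, adjusted p = 0.0158), with overlap through rat 7 at 8.49, and lost its call without untreated rat 2 (adjusted p = 0.0504).

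**Figure D2:**
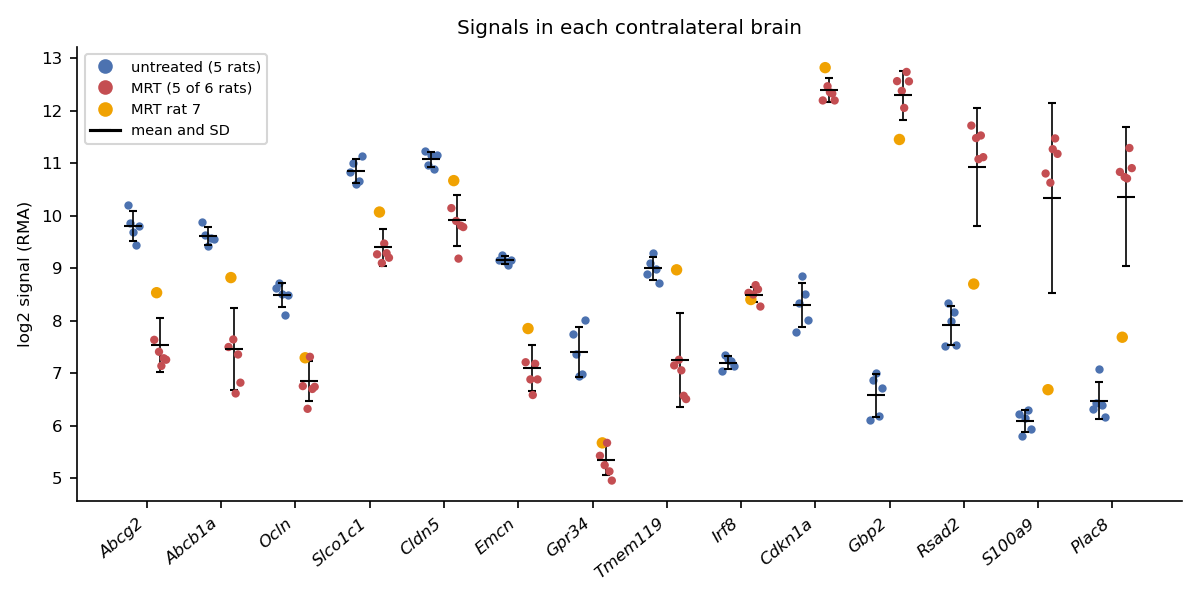
Log2 array signal of 14 genes in each contralateral brain, with the mean and SD of each group (n = 5 untreated and 6 MRT rats). The barrier and endothelial genes Abcg2, Abcb1a, Ocln, Slco1c1, Cldn5 and Emcn lie lower in all MRT rats, with MRT rat 7 (orange) at or next to the top of its group. Cdkn1a lies higher in all MRT rats with rat 7 highest, and S100a9 and Plac8 lie far higher in 5 MRT rats and slightly higher in rat 7.

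Oligodendrocyte precursors gave 4 genes called lower of 16, Bmp4, Pdgfra and Sox4 among them, and 0 higher. Bmp4, a morphogen of precursors that begin to differentiate, was 2.26-fold lower (log2 −1.18 ± 0.22, adjusted p = 0.00688), at 8.18 to 8.77 untreated, 8.34 in rat 7 and 6.88 to 7.32 in the other MRT rats. Pdgfra, the growth factor receptor that defines precursors, was 1.59-fold lower (log2 −0.67 ± 0.14, adjusted p = 0.0115), and rat 7 at 10.84 just exceeded the lowest untreated rat at 10.80.

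Id3 and Id1, which BMP signaling induces, were called lower too. Id3, an inhibitor of bHLH factors, was at 10.29, 11.16, 10.30, 10.60 and 11.06 and then at 9.37 to 10.26 (median 9.61), 2.01-fold lower (log2 −1.0 ± 0.19, adjusted p = 0.00718), without overlap. Id1 was 1.78-fold lower (log2 −0.83 ± 0.16, adjusted p = 0.00906), with rat 7 at 9.58 inside the untreated range of 9.49 to 9.95. In the TGF-beta and BMP list as a whole 3 of 35 genes were called lower and 3 higher (Tgif1, Smad1 and Id2), with 7 lower without rat 7, and of 36 SOX, FOX, bHLH and homeobox factors 7 were called lower and 3 higher, with 1 higher and 5 or 6 lower without rats 1, 4 or 9. Of 24 Notch and Hedgehog genes 0 were called by limma and 1 by SAM, and 5 had an unadjusted p under 0.05. Without rat 7 limma called 1 of them higher and 1 lower.

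Astrocyte markers gave few calls while many genes of the reactive state rose. Of 22 astrocyte markers 1 was called higher (Gfap) and 1 lower (Gjb6), with a median of −0.02. Gfap, the astrocyte filament protein, was at 11.69, 12.91, 12.93, 12.86 and 12.47 and then at 13.18 to 13.47 (median 13.28), 1.66-fold higher (log2 0.73 ± 0.19, adjusted p = 0.0492), without overlap. Both calls sit at the threshold. That of Gfap was lost without rats 4, 5, 6, 8, 9, 10 or 11 (adjusted p up to 0.12), and that of Gjb6, the gap junction protein connexin 30 (1.55-fold lower, log2 −0.63 ± 0.17, adjusted p = 0.0493), in every such fit but the one without rat 7 (up to 0.136).

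Among 23 genes known to rise in reactive astrocytes 13 were called higher and 0 lower (median 0.79), and without rat 7 18 were higher. Timp1, an inhibitor of matrix metalloproteinases, was at 7.23, 7.19, 7.52, 6.38 and 6.91 and then at 9.85 (rat 7) to 12.19 (median 11.67), 22.1-fold higher (log2 4.46 ± 0.35, adjusted p = 4.3e-06). Lcn2 (lipocalin 2, which binds iron carriers of bacteria) was at 5.32, 5.46, 5.29, 5.09 and 4.95 and then at 6.58 to 7.61 (median 7.09), 3.64-fold higher (log2 1.86 ± 0.16, adjusted p = 9.46e-06), from an untreated mean below the 25th percentile of signals. Steap4, a metalloreductase, was also low in untreated brain (3.70 to 4.09) and reached 4.81 in rat 7 and up to 8.16 in the others, 7.74-fold higher (log2 2.95 ± 0.43, adjusted p = 0.000931). Groups did not overlap in any of the 3 genes. Leukocytes express several genes of this list, Cd14 and Timp1 among them, and their part in the list was not tested. In rat 7 the mean log2 signal of this list, 8.76, lay above the untreated range of 7.63 to 7.98. Its mean for the monocyte genes, 7.57, also lay above their untreated range of 7.08 to 7.34. Its means for the neutrophil genes, 5.88, and for the T, NK and B cell genes, 5.81, lay inside their untreated ranges.

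Most interferon-stimulated genes were called higher. Of 29 genes 23 were called higher and 0 lower, with a median log2 fold change of 1.27, and all 29 were positive. Gbp2, a guanylate-binding GTPase whose promoter is printed above, was at 6.11, 6.87, 7.00, 6.19 and 6.73 and then at 11.46 to 12.74 (median 12.47), 52.6-fold higher (log2 5.72 ± 0.23, adjusted p = 9.85e-09). Irf1, a transcription factor of the interferon gamma response, was at 7.15, 7.58, 7.89, 7.62 and 7.36 and then at 10.20 to 11.39 (median 10.68), 9.16-fold higher (log2 3.20 ± 0.19, adjusted p = 3.68e-07). The groups lay far apart in both, and for Irf1 rat 7 was the highest of all.

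The antiviral effectors that type I interferon induces were less even across rats. Ifit3 was at 5.95, 5.55, 5.86, 5.25 and 5.98 in the untreated rats, at 7.49 in MRT rat 7 and at 9.29 to 10.22 in the other MRT rats, 12-fold higher (log2 3.59 ± 0.38, adjusted p = 6.33e-05), from an untreated mean below the 25th percentile. Rsad2, which encodes viperin, was at 7.52, 8.33, 7.99, 8.17 and 7.55, at 8.70 in rat 7 and at 11.08 to 11.72 in the others, 8.15-fold higher (log2 3.03 ± 0.44, adjusted p = 0.000979). Mx1, a dynamin-like GTPase against viruses, stayed at 5.29 in rat 7, inside the untreated range of 4.95 to 5.61, and reached 7.66 to 8.84 in the others (5.59-fold, log2 2.48 ± 0.49, adjusted p = 0.00866). Of 8 measured interferon ligands and receptor chains with their kinases, 1 was called, Jak2 (1.83-fold higher, log2 0.87 ± 0.17, adjusted p = 0.00767), and its level in rat 7, 9.93, lay inside the untreated range of 9.73 to 9.94.

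Most NF-kB genes were called higher. Of 12 genes of its subunits and feedback inhibitors 10 were called higher and 0 lower (median 0.93). Nfkbia, the inhibitor IkB alpha, was at 9.66, 9.20, 9.25, 9.09 and 9.56 and then at 11.58 to 12.10 (median 11.84), 5.55-fold higher (log2 2.47 ± 0.12, adjusted p = 5.67e-08). Birc3, an inhibitor of apoptosis that NF-kB induces, was at 6.94, 6.58, 6.74, 6.86 and 6.46 and then at 9.35 to 10.04 (median 9.70), 7.93-fold higher (log2 2.99 ± 0.13, adjusted p = 1.24e-08). Nfkb2, the p100 subunit, went from 6.60 to 7.12 untreated to 8.64 to 9.18 after MRT with rat 7 highest (4.14-fold, log2 2.05 ± 0.13, adjusted p = 4.15e-07). Nfkbiz, a nuclear cofactor of NF-kB, rose 3.59-fold (log2 1.85 ± 0.14, adjusted p = 2.52e-06). In none of the 4 did the groups overlap.

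Sensors and cytokine signaling genes rose in part. Of 17 Toll-like and other innate sensors 9 were called higher (median 0.56), and of 29 cytokine receptors and SOCS feedback genes 11 were called higher (median 0.37), with 0 lower in either list. Tlr2, a receptor for bacterial lipoproteins, was at 6.75, 7.29, 7.59, 7.14 and 7.23 and then at 8.51 to 9.56 (median 9.40), 4.13-fold higher (log2 2.05 ± 0.19, adjusted p = 1.61e-05). Myd88, the adapter of Toll-like and interleukin 1 receptors, was at 8.27 to 9.21 untreated and 10.02 to 10.24 after MRT, 2.98-fold higher (log2 1.58 ± 0.14, adjusted p = 1.23e-05). Socs3, a feedback inhibitor of STAT3, rose 3.71-fold (log2 1.89 ± 0.15, adjusted p = 5.03e-06), and Il6, the cytokine that induces it, 4.91-fold (log2 2.30 ± 0.14, adjusted p = 4.15e-07), from untreated means below the 25th percentile in both. Groups did not overlap in these 4 genes.

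Complement genes rose in part. Of 19 genes 9 were called higher and 1 lower, and without rat 7 4 were lower. C3, the central component, was at 7.72, 8.46, 8.29, 8.17 and 8.26 and then at 9.21 to 9.93 (median 9.70), 2.82-fold higher (log2 1.5 ± 0.15, adjusted p = 3.67e-05). The groups did not overlap. Of 22 genes of prostaglandin and leukotriene synthesis and their receptors 3 were called higher and 1 lower (Ltc4s), with 3 lower without rat 7, 2 without rat 3 and 0 without rat 4. Ptges, the inducible prostaglandin E synthase, had the largest change of the list, from 6.48 to 6.88 untreated to 8.22 to 10.04 after MRT (7.13-fold, log2 2.83 ± 0.27, adjusted p = 2.45e-05).

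The p53 targets rose in part. Of 25 genes 15 were called higher and 0 lower (median 0.80), and the count was 15 in each of the 11 fits that left out 1 rat. Cdkn1a, the cell cycle inhibitor p21, was at 7.79, 8.34, 8.85, 8.51 and 8.01 and then at 12.20 to 12.83 (median 12.34), 17.1-fold higher (log2 4.09 ± 0.18, adjusted p = 1.48e-08). Phlda3, an inhibitor of the kinase AKT, was at 8.01, 8.04, 8.60, 8.03 and 7.81 and then at 10.37 to 10.58 (median 10.40), 5.05-fold higher (log2 2.34 ± 0.12, adjusted p = 8.05e-08). Aen, an exonuclease of p53-driven apoptosis, rose 4.35-fold (log2 2.12 ± 0.11, adjusted p = 1.08e-07).

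For 2 further targets rat 7 was the lowest MRT rat. Fas, the death receptor, was at 5.98, 5.83, 5.86, 5.36 and 5.58 and then at 7.81 (rat 7) to 9.22 (median 8.95), 8.54-fold higher (log2 3.09 ± 0.22, adjusted p = 1.5e-06), from an untreated mean below the 25th percentile. Mdm2, the ubiquitin ligase that degrades p53, was at 9.83, 10.10, 9.89, 9.91 and 10.02 and then at 10.71 (rat 7) to 11.27 (median 11.20), 2.25-fold higher (log2 1.17 ± 0.11, adjusted p = 1.47e-05). The groups of all 5 genes lay apart.

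The list of DNA repair genes gave no call. Of its 30 genes of damage sensing and repair 0 were called by limma or SAM (5 before adjustment at p under 0.05), with a median of −0.08. Without rat 6 limma called 1 of them lower. Some repair genes outside the list were called, among them Spidr and Mgmt higher and Blm and Topbp1 lower. Cell cycle genes gave 1 higher and 2 lower of 32 (median −0.04), with 0 lower without rats 2, 9 or 11 and 3 without rat 7. Ccnd1, cyclin D1, is also counted among the p53 targets. It was at 8.49 to 8.94 untreated and 9.12 to 9.90 after MRT, 1.72-fold higher (log2 0.78 ± 0.15, adjusted p = 0.00731). Top2a, the topoisomerase of dividing cells, was 1.5-fold lower (log2 −0.58 ± 0.13, adjusted p = 0.0212), with an MRT mean below the 25th percentile, and lost its call without rats 2, 4, 9 or 11 (adjusted p up to 0.0683). Among cell cycle genes outside the list, Cks2 (log2 1.60) and Gtse1 (0.56) were called higher, Ttk (−1.06) and Kif18b (−0.42) lower. The mean signal of Ttk, 5.44, lay below the 25th percentile.

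**Figure D3:**
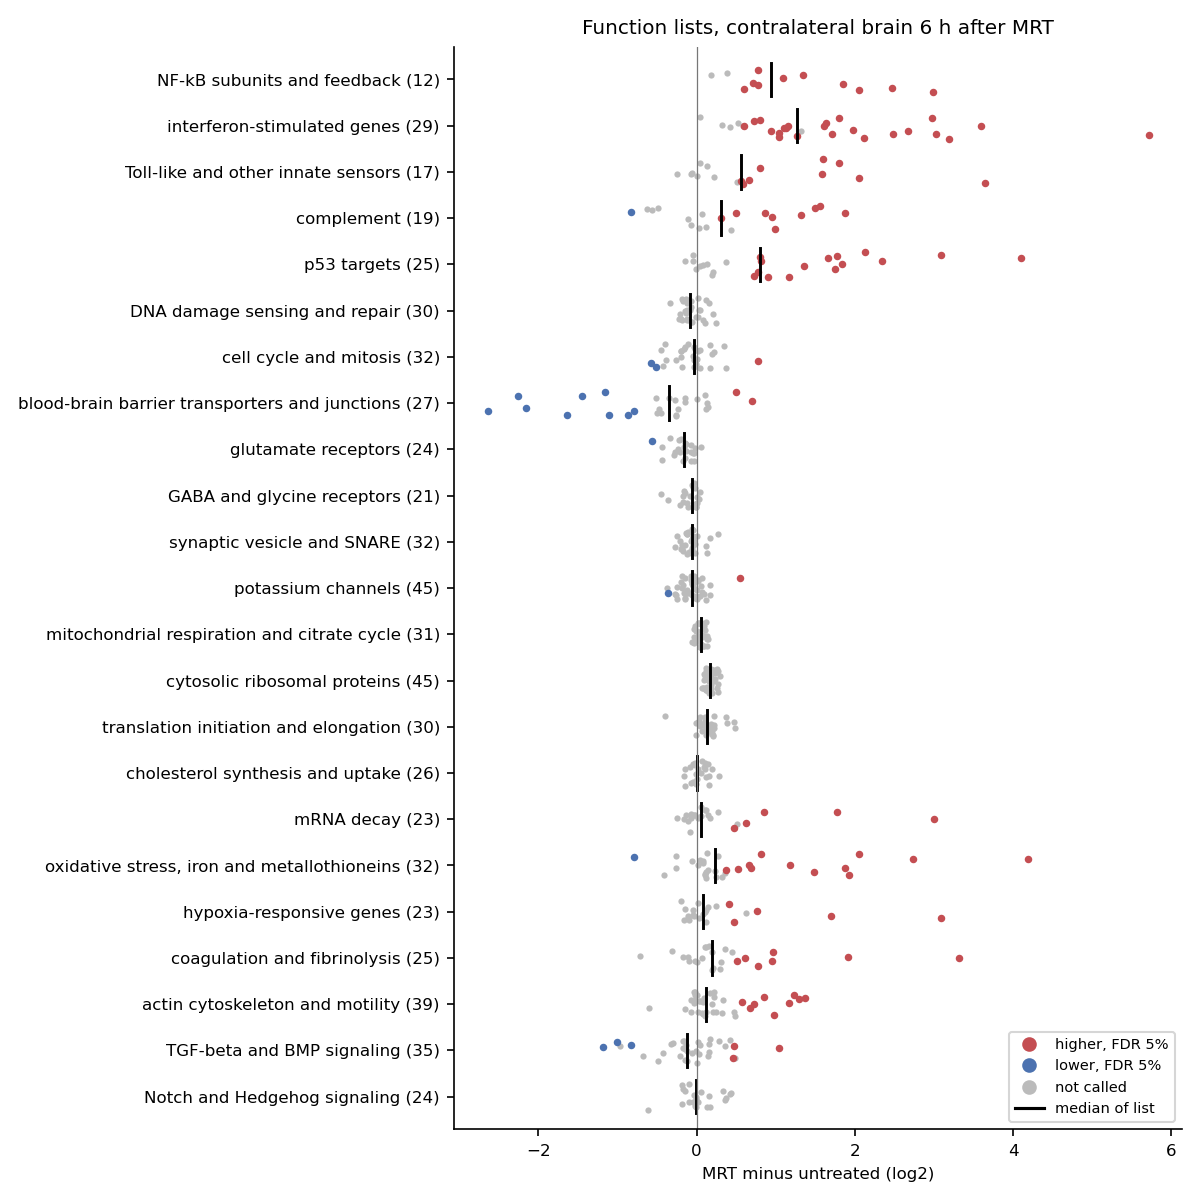
Log2 fold change (MRT minus untreated, 5 and 6 rats) of every measured gene in 23 function lists, with the number of genes in parentheses, drawn as in the plot of cell type lists. NF-kB, interferon-stimulated and p53 target lists hold mostly red points, the blood-brain barrier list mostly blue ones among its called genes, and receptor, channel, respiration and ribosome lists stay close to 0 with few or no calls.

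Some genes that control RNA stability rose. Of 23 mRNA decay genes 5 were called higher and 0 lower (Zfp36, Btg1, Btg2, Zfp36l1 and Zc3h12a), a count that stood in all 11 fits that left out 1 rat. Zfp36, tristetraprolin, which destabilizes cytokine mRNAs, was at 7.32, 6.73, 6.81, 6.70 and 6.83 and then at 9.38 to 10.47 (median 9.79), 7.98-fold higher (log2 3.00 ± 0.20, adjusted p = 1.13e-06). Its relative Zfp36l1 rose 1.80-fold (log2 0.85 ± 0.14, adjusted p = 0.0031), and Btg2, an antiproliferative deadenylase cofactor and p53 target, 3.42-fold (log2 1.77 ± 0.29, adjusted p = 0.00223). Rat 7 was the highest MRT rat for Zfp36 and Zfp36l1, and the groups of the 3 genes did not overlap.

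Splicing and nucleolar genes were called in part, all of them higher. Of 29 RNA processing genes 3 were called higher, all SR splicing factors, and 5 without rat 7. Srsf3 was at 11.34 to 11.79 untreated and 11.85 to 12.45 after MRT (1.57-fold, log2 0.65 ± 0.12, adjusted p = 0.00718). Of 24 genes of ribosome biogenesis 3 were called higher (Myc, Gar1 and Ddx21), and 5 without rat 7. Myc, the growth factor-induced transcription factor, was at 6.58, 6.89, 7.66, 6.94 and 7.04 and then at 8.09 to 9.33 (median 8.54, rat 7 highest), 2.97-fold higher (log2 1.57 ± 0.21, adjusted p = 0.00055).

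Metallothionein genes rose in all MRT rats. Of 32 genes of oxidative stress, iron and metal handling 12 were called higher and 1 lower (Slc40a1, the iron exporter). Mt1 was at 9.64, 10.01, 10.89, 9.87 and 10.02 and then at 12.19 (rat 7) to 13.07 (median 12.94), 6.65-fold higher (log2 2.73 ± 0.21, adjusted p = 3.74e-06), and Mt2A was 4.13-fold higher (log2 2.05 ± 0.20, adjusted p = 3.04e-05). Nfe2l2, which encodes the antioxidant regulator NRF2, was at 9.69, 9.87, 9.86, 9.81 and 9.74 and then at 10.74 to 11.46 (median 11.39), 2.81-fold higher (log2 1.49 ± 0.12, adjusted p = 5.97e-06). Groups did not overlap in these 3 genes.

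Both metallothioneins and Angptl4 are also glucocorticoid-responsive, a list of which 5 of 19 genes were called higher and 0 lower (3 lower without rat 7). Angptl4, an inhibitor of lipoprotein lipase that also responds to hypoxia, was at 8.69, 8.49, 9.16, 8.57 and 8.63 and then at 10.53 (rat 7) to 12.42 (median 11.88), 8.49-fold higher (log2 3.09 ± 0.27, adjusted p = 1.23e-05). Of 23 hypoxia-responsive genes 5 were called higher (median 0.07), 3 without rats 4 or 5, and Adm, the vasodilator peptide adrenomedullin, rose 3.25-fold (log2 1.70 ± 0.14, adjusted p = 5.81e-06). Of 20 clock genes 2 were called higher and 1 lower, and without rat 7 3 were higher and 2 lower. Nfil3, a repressor of clock output, went from 7.97 to 8.41 untreated to 8.69 to 9.08 after MRT (1.67-fold, log2 0.74 ± 0.10, adjusted p = 0.000507). Per3 was 1.55-fold lower (log2 −0.63 ± 0.16, adjusted p = 0.0371), with overlap, and the call was lost in 9 of the 11 fits that left out 1 rat, all but those without rats 3 or 7 (adjusted p up to 0.11). The time of day of sampling is not stated in the sources used here.

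Genes of neuronal function showed few calls. Across 263 genes of receptors, channels, transporters and synapses 2 were called higher, Kcnn3 among them, and 4 lower (Grm7, Kcnh1, Cacna1b and Nlgn1), the median log2 fold change was −0.07, and 262 lay within 1.5-fold of untreated. Grm7, a presynaptic metabotropic glutamate receptor, was at 8.06, 8.05, 8.16, 8.05 and 7.95 and then at 7.43 to 7.63 (median 7.48), 1.47-fold lower (log2 −0.56 ± 0.07, adjusted p = 0.000363), without overlap. Cacna1b, the pore of N-type calcium channels, was 1.31-fold lower (log2 −0.39 ± 0.09, adjusted p = 0.029) and Nlgn1, a postsynaptic adhesion protein, 1.48-fold lower (log2 −0.57 ± 0.13, adjusted p = 0.0272). Groups did not overlap in either, but Cacna1b lost its call without rats 1, 3, 4, 6, 9 or 11 (adjusted p up to 0.0917) and Nlgn1 without rats 1, 2, 4, 5, 9 or 11 (up to 0.0833). Kcnn3, a calcium-activated potassium channel, was 1.46-fold higher (log2 0.54 ± 0.12, adjusted p = 0.0212), and not called without rats 1 or 4 (up to 0.067). Kcnh1, a voltage-gated potassium channel, was not called without rats 1, 2, 4, 6, 9 or 11, while 3 potassium channels were lower without rat 3 and 2 without rat 10.

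In 23 of 24 glutamate receptor genes the fold change was negative (median −0.16, 1 called, and 2 without rats 3 or 7), as it was in 27 of 32 synaptic vesicle genes (median −0.06, 0 called by limma or SAM, 0 at an unadjusted p under 0.05). Of 24 genes that neuronal activity induces 4 were called higher. Gadd45b, a growth arrest gene, was at 8.83, 8.34, 8.74, 8.17 and 9.17 and then at 10.34 to 11.09 (median 10.67), 4.05-fold higher (log2 2.02 ± 0.18, adjusted p = 1.23e-05). Nptx2, a secreted pentraxin that clusters AMPA receptors, rose 1.52-fold (log2 0.60 ± 0.12, adjusted p = 0.0119), from 10.03 to 10.83 untreated to 11.09 to 11.27 after MRT. Gadd45b and Nptx2 had no overlap between groups, with rat 7 the highest MRT rat for Gadd45b.

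Core metabolism and protein synthesis gave few calls. Across 187 genes of glycolysis, respiration, cytosolic ribosomes, translation, cholesterol synthesis and the proteasome 3 were called higher (Psma7, Pfkfb3 and Slc16a3) and 0 lower, with a median of 0.10. These calls changed when 1 rat was left out. Psma7, a proteasome subunit, was not called without rats 1, 2, 3, 4, 5, 6, 9, 10 or 11, and without rat 7 4 proteasome genes were higher. In glycolysis 0 genes were called without rat 5 and 1 without rats 4, 9 or 11. In translation 1 was higher and 1 lower without rat 3, and 2 higher and 1 lower without rat 7, where 1 ribosomal protein gene was also called higher. Of 31 respiration and citrate cycle genes 0 were called by limma or SAM (0 before adjustment at p under 0.05). All 45 ribosomal protein genes were positive (median 0.17), 0 were called by limma and 1 by SAM, and 18 had an unadjusted p under 0.05. Pfkfb3, the kinase that drives glycolytic flux, was at 5.13 to 5.75 untreated and 5.86 to 6.73 after MRT (1.69-fold, log2 0.76 ± 0.17, adjusted p = 0.0203), from an untreated mean below the 25th percentile, and lost its call without rats 4 or 5 (adjusted p up to 0.0656). Plin2, which coats lipid droplets, rose 2.20-fold (log2 1.14 ± 0.18, adjusted p = 0.00185), from 8.10 to 8.77 untreated to 8.87 to 10.02 after MRT.

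Coagulation, matrix and cytoskeleton genes rose in part. Of 25 coagulation and fibrinolysis genes 7 were called higher and 0 lower, and 7 were higher in each of the 11 fits that left out 1 rat, with 1 lower without rat 7. Tfpi2, a serine protease inhibitor of the matrix, was at 5.04, 5.25, 5.32, 4.91 and 5.25 and then at 7.84 to 8.92 (median 8.55), 9.99-fold higher (log2 3.32 ± 0.16, adjusted p = 3.75e-08). Procr, the endothelial receptor of protein C, was at 5.39, 5.25, 5.83, 5.58 and 5.70 and then at 6.95 to 7.75 (median 7.66), 3.77-fold higher (log2 1.92 ± 0.17, adjusted p = 1.23e-05). Untreated means of both lay below the 25th percentile of signals.

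The plasminogen activators rose. Plat, the tissue-type activator, was at 9.40 to 10.01 untreated and 10.18 to 10.84 after MRT (1.71-fold, log2 0.77 ± 0.14, adjusted p = 0.0058), and Plau, the urokinase type, was 1.96-fold higher (log2 0.97 ± 0.14, adjusted p = 0.000736). Of 37 matrix genes 8 were called higher and 1 lower (Thbs2), with 5 higher without rats 1, 5, 6, 8, 10 or 11, and Adamts1, a protease of proteoglycans, rose from 6.60, 7.37, 7.08, 6.70 and 7.38 to between 8.47 and 9.53 (median 9.13), 4.22-fold (log2 2.08 ± 0.20, adjusted p = 2.35e-05).

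Of 39 genes of the actin cytoskeleton and motility 9 were called higher and 0 lower, and without rat 7 11 were higher and 1 lower. Msn, moesin, which links actin to the membrane of endothelium and leukocytes, was at 8.59, 8.95, 9.20, 8.83 and 8.85 and then at 9.73 to 10.51 (median 10.16), 2.45-fold higher (log2 1.29 ± 0.14, adjusted p = 8.48e-05), and Arpc1b, an Arp2/3 subunit, rose 2.59-fold (log2 1.38 ± 0.15, adjusted p = 9.34e-05). Of 31 tubulins, motors and transport genes 1 was called, Tubb6, a beta-tubulin outside the neuronal set, at 7.43, 7.82, 7.95, 7.17 and 7.68 and then at 10.38 to 10.63 (median 10.51), 7.48-fold higher (log2 2.90 ± 0.13, adjusted p = 1.71e-08). Groups did not overlap in these 3 genes.

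Among regulators of chromatin, of 28 genes 1 was called, Kdm6b, a histone H3 demethylase induced by inflammation, which rose from 8.48 to 8.81 untreated to 9.59 to 10.17 after MRT (2.33-fold, log2 1.22 ± 0.11, adjusted p = 1.93e-05). Of 39 Kruppel-like, AP-1, ETS and nuclear receptor factors 6 were called higher (Fosl1, Junb, Fos, Batf, Fosl2 and Klf10) and 1 lower, and without rat 7 8 were higher and 2 lower. The gene called lower was Nr3c2, the mineralocorticoid receptor, at 10.14 to 10.77 untreated and 9.70 to 10.01 after MRT (1.5-fold, log2 −0.59 ± 0.11, adjusted p = 0.00724). Of 30 genes of purine and nitric oxide signaling 2 were called higher and 2 lower. Gch1, the first enzyme of tetrahydrobiopterin synthesis, rose 5.89-fold (log2 2.56 ± 0.21, adjusted p = 5.01e-06) from an untreated mean below the 25th percentile, and Adora3, an adenosine receptor, was 1.89-fold lower (log2 −0.92 ± 0.14, adjusted p = 0.00151) with both means below it.

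In total 471 of the 787 called genes stood in none of the 75 lists, 338 higher and 133 lower. Cebpd, a C/EBP factor of acute inflammation, was at 7.46, 8.12, 8.80, 7.88 and 8.17 and then at 10.84 to 11.12 (median 10.99), 7.42-fold higher (log2 2.89 ± 0.18, adjusted p = 4.54e-07). Ifitm3, an antiviral membrane protein, was at 9.17, 9.16, 9.92, 8.78 and 9.36 and then at 11.50 to 12.53 (median 12.18), 7.32-fold higher (log2 2.87 ± 0.20, adjusted p = 1.5e-06). Tgm2, tissue transglutaminase, was at 7.75, 7.98, 8.19, 7.96 and 7.74 and then at 10.18 to 11.01 (median 10.90), 7.03-fold higher (log2 2.81 ± 0.15, adjusted p = 1.28e-07). No overlap occurred in these 3 genes.

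Ch25h, which makes 25-hydroxycholesterol, rose from 7.47, 7.37, 7.48, 6.97 and 7.85 to between 9.65 and 10.95 (median 10.02), 6.46-fold (log2 2.69 ± 0.21, adjusted p = 3.56e-06), with rat 7 highest. Slfn3, a schlafen gene, was at 6.36, 5.67, 5.13, 6.41 and 5.67 untreated, at 5.67 in MRT rat 7 and at 9.54 to 10.60 in the other MRT rats (10.5-fold, log2 3.39 ± 0.70, adjusted p = 0.0121). Its untreated mean lies below the 25th percentile, and its log2 fold change without rat 7 was 4.11.

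Unlisted genes called lower included several with large changes. Prom1, prominin 1, a membrane protein of progenitors and epithelia, was at 9.76, 9.91, 9.92, 9.81 and 9.82 and then at 6.73 to 8.55 (median 6.98), 6.18-fold lower (log2 −2.63 ± 0.26, adjusted p = 3.21e-05). Cyyr1, a membrane protein gene, was at 9.27, 9.57, 9.00, 9.24 and 9.46 and then at 6.79 to 7.75 (median 7.33), 4.03-fold lower (log2 −2.01 ± 0.16, adjusted p = 3.9e-06). Sema3g, a semaphorin of arterial endothelium, was at 8.26, 8.41, 8.51, 8.37 and 8.04 and then at 5.75 to 7.97 (median 6.60), 3.35-fold lower (log2 −1.74 ± 0.31, adjusted p = 0.00445). The groups did not overlap in any of them, and rat 7 had the highest MRT value in each.

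The brighter genes Ccn2 and Maob were also called lower. Ccn2, connective tissue growth factor, was at 10.88, 10.87, 11.11, 10.95 and 10.71 and then at 9.42 to 10.18 (median 9.77), 2.19-fold lower (log2 −1.13 ± 0.13, adjusted p = 9.35e-05). Maob, the monoamine oxidase of astrocytes, was at 11.48, 11.89, 11.56, 11.66 and 11.65 and then at 11.14 to 11.40 (median 11.21), 1.33-fold lower (log2 −0.41 ± 0.09, adjusted p = 0.0163). Neither overlapped between groups.

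MRT rat 7 held a place of its own among the 6 MRT rats, and this place differed by function. It had the smallest change of the 6 in 436 of the 787 called genes, against 42 to 116 genes for each of the other 5, and lay beyond all untreated rats in 634 genes, against 764 to 777. For p53 targets its mean log2 signal over the list was 9.31, beside 9.37 to 9.39 in the other MRT rats and 8.29 to 8.39 in untreated rats. For NF-kB genes it was 9.53, inside the 9.37 to 9.60 of the others and above the untreated 8.12 to 8.40. In adhesion genes (9.17 against 8.86 to 9.18) and coagulation genes (7.42 against 7.26 to 7.35) it also lay within or above the others.

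By mean list level, the same rat lay near the untreated rats for leukocyte, barrier and vessel lists. Among the called genes it still lay beyond all untreated rats in 10 of 11 barrier, 6 of 7 endothelial and 10 of 14 microglia genes. This held for 3 of 6 called neutrophil genes, 3 of 8 monocyte genes and 4 of 7 genes of T, NK and B cells. Its monocyte level was 7.57 against 8.95 to 9.38 in the other MRT rats and 7.08 to 7.34 untreated, and its neutrophil level 5.88 against 7.11 to 7.29 and 5.63 to 5.95. Barrier genes were at 9.64 against 8.97 to 9.11 and 9.66 to 9.86, microglia genes at 8.74 against 8.16 to 8.37 and 8.67 to 8.89, and endothelial genes at 8.60 against 7.60 to 8.06 and 8.34 to 8.61. Interferon-stimulated genes lay between, at 8.23 against 9.11 to 9.48 in the other MRT rats and 7.37 to 7.62 untreated. This rat also had the highest striatal level and the widest actin gap, as given above; the part of tissue content and RNA integrity in its place was not tested. Rat 7 was singled out after its values were seen, and its place carries no test.

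**Figure D4:**
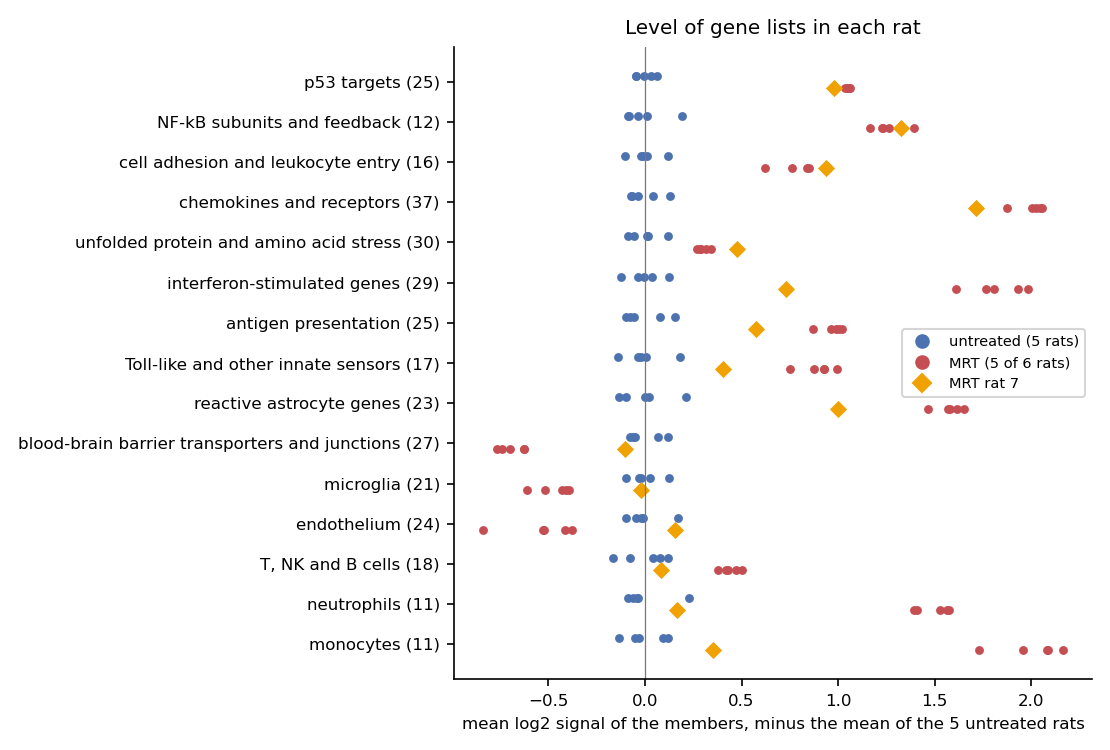
Mean log2 signal of the genes of 15 lists in each rat, minus the mean of the 5 untreated rats, with the number of genes in parentheses. Blue points are untreated rats, red points 5 MRT rats and the orange diamond MRT rat 7. In these means rat 7 sits with or close to the other MRT rats for p53 targets, NF-kB and adhesion genes. It sits between the groups for interferon-stimulated genes. Its means lie beside the untreated rats for microglia, endothelium, barrier and neutrophil genes, although most called barrier and endothelial genes lay beyond all untreated rats.

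The response of contralateral brain was set against that of the 9L tumor in the same rats by a limma contrast of the 2 responses. The contrast held no term for the rat, so the 2 arrays of a rat entered as independent. The difference of the 2 responses passed in 110 of 13699 genes (0.803%), with a more positive response in contralateral brain in 98 (0.715%) and in tumor in 12 (0.0876%). Over probesets it passed in 145 of 31042 (0.467%), and in 68 without rat 6, 73 to 76 without rats 1, 2 or 8 and 261 without rat 7. Gbp2 rose 52.6-fold in brain against a log2 fold change of 0.97 in tumor that did not pass (adjusted p = 0.159), a difference of 4.74 (adjusted p = 2.11e-07). Timp1 differed by 4.13 (adjusted p = 6.73e-06), from a log2 fold change of 0.33 in tumor, and Tubb6 by 2.76 (adjusted p = 2.11e-07), from 0.14 in tumor. Irf8 had opposite signs, 1.29 in brain and −0.38 in tumor (adjusted p = 0.763 for tumor alone), and differed by 1.67 (adjusted p = 0.000921).

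Some p53 targets rose more in brain than in tumor and others did not pass the test of the difference. Cdkn1a had log2 fold changes of 4.09 in brain and 2.71 in tumor (difference 1.38, adjusted p = 0.0188), and Phlda3 2.34 and 0.89 (difference 1.45, adjusted p = 0.00107). The difference of Cdkn1a was not called without rats 1, 2, 6, 8, 9 or 10 (adjusted p up to 0.0781). Mdm2 had 1.17 and 1.24, a difference of −0.07 (adjusted p = 1). Abcb1a fell in brain and had a log2 fold change of −0.11 in tumor (difference −2.05, adjusted p = 0.0322), and Emcn fell in both but by more in brain (−2.06 and −0.94, difference −1.12, adjusted p = 0.0229). With the rat as a replicate block these 2 differences had adjusted p of 0.106 and 0.0574, and each was lost in 9 of the 11 fits that left out 1 rat, Abcb1a in all but those without rats 5 or 7 (up to 0.161) and Emcn in all but those without rats 7 or 9 (up to 0.0953). For Abcg2, Slco1c1 and Gpr34 the values were −2.26 and −1.63, −1.45 and −1.71, and −2.06 and −2.69, and none of the 3 differences passed (adjusted p = 1 for each). In these 2 tissues a gene can start from different levels, and 9L cells make up much of the tumor sample.

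**Figure D5:**
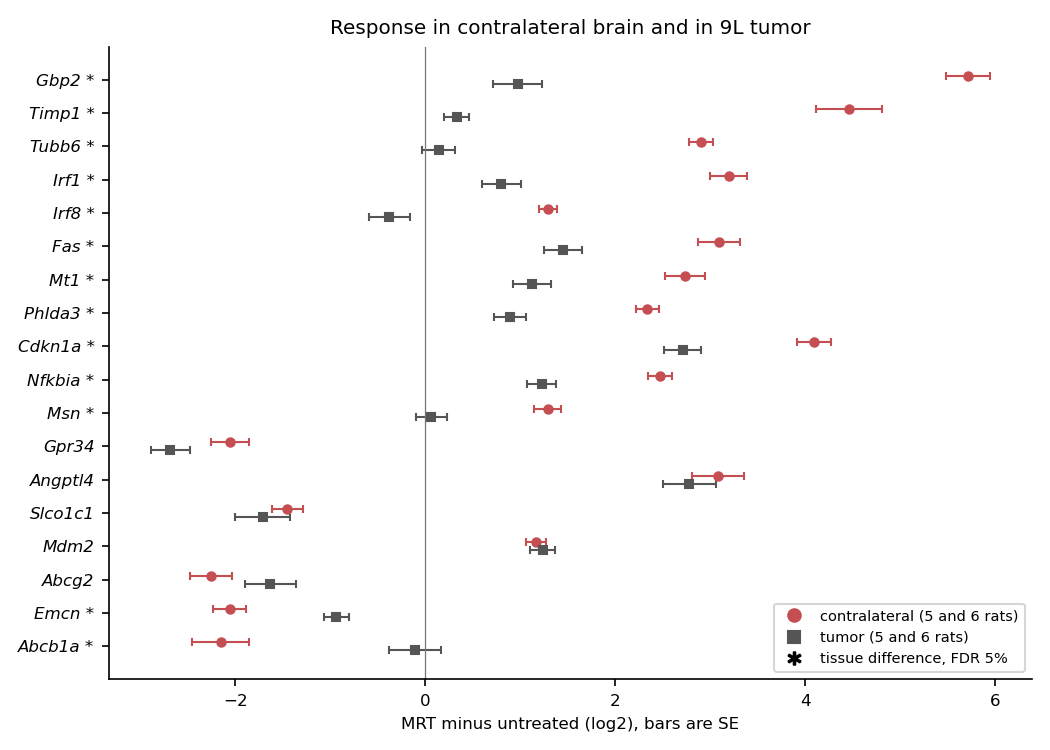
Log2 fold change after MRT in contralateral brain (red circles) and in 9L tumor (gray squares) of 18 genes, 5 untreated and 6 MRT rats per tissue, with the SE. Genes are ordered by the difference and an asterisk marks those whose difference passed limma at an FDR of 5%. Gbp2, Timp1 and Tubb6 stand far apart at the top, Abcb1a and Emcn at the bottom, and Mdm2, Angptl4 and Slco1c1 lie close together.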

How the data were processed

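RNA from contralateral brain and 9L tumor (200 ng each), from 2 experimental sessions that the sources used here do not assign to samples, was amplified, labelled and hybridized to Affymetrix whole-genome rat arrays. The deposited values are intensity signals that the authors summarized by robust multi-array averaging (RMA) in Expression Console (version not given) and returned to a linear scale as whole numbers from 10 to 36564. The files carry no detection flags, so faint genes were kept, and the number of arrays limits the precision.

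The 11 contralateral arrays, each from a separate rat, were taken to log2 without further normalization and fitted with limma 3.58.1 in R 4.3.3 (lmFit, eBayes) over 31042 probesets after leaving out 57 controls, with Benjamini-Hochberg adjustment and an FDR of 5%. All adjusted p-values are from limma. Of these probesets 19546 carried 1 symbol, 372 several and 11124 none. Symbols were updated through RefSeq (GRCr8): 15456 were current, 2821 matched a synonym and 1269 kept the name of the file. The brightest probeset stood for each of 13699 genes. Tables were handled with pandas 2.3.3. The tissue difference was a contrast of contralateral response minus tumor response over 22 arrays, without a term for the rat, which was an alternative. Arrays of the same rat number come from 1 animal: their residuals correlated at a median of 0.312 (0.0972 to 0.649 over 11 rats), against −0.0558 between rats. The fits were tested on simulated data.

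Members and lists were chosen with earlier results of these data known. For each list the rule took up to 4 called genes of smallest p, or with no call the 2 largest changes, and outside the lists the 12 brightest and 12 most changed genes in each direction. Genes given with values outside this rule, chosen after their values were seen, were Slc16a1, Kdr, Tmem119, Csf1r, Sall1, Ptprc, Cd68, Fcnb, Steap4, Id1, Vtn, Ifit3, Rsad2, Mx1, Fas, Mdm2, Plat, Sox7, Nr3c2 and Ppp1r1b. Some called genes are not reported here by name. Alternatives were moderated variances with trend, a floor at the 25th percentile, cyclic loess, array weights, labelling group or gap, all 4 groups, SAM (a permutation-based method, FDR 4.32%, 100 permutations), stricter thresholds, other choices of probeset, and leaving out each rat. Leaving out rats 3 and 7 or 1 and 7, and the striatal level as a covariate, were added after seeing the data.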

Additional observations from a re-analysis of the deposited data

Results flagged for a closer look

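In 244 groups examined (the untreated or MRT rats for 1 gene or list), 41 held 1 rat far from the others by Dixon's criterion. Chance gives about 1 in 20 in independent groups. These groups share rats and genes, and some genes were chosen after their values were seen, so the count carries no test. MRT rat 7 was the rat that stood apart in 34 of them, and the explanation was not tested. It lay nearer the untreated rats than its group for the vessel and microglia genes Abcg2 (8.54, nearest other MRT rat 7.64), Slc16a1 (10.81, 11.17), Angpt2 (7.75, 9.38), Tmem119 (8.97, 7.26), Csf1r (9.57, 8.67) and Vtn (9.10, 8.16), and for Prom1 (8.55, 7.14), a gene in none of the lists. The same held for the leukocyte genes Ptprc (6.38, 8.90), S100a9 (6.69, 10.63), Plac8 (7.69, 10.71) and Fcnb (6.69, 9.38), and for the interferon genes Ifit3 (7.49, 9.29), Rsad2 (8.70, 11.08), Mx1 (5.29, 7.66) and Jak2 (9.93, 10.71). It also held for Slfn3 (5.67, 9.54) and for Myd88 (10.02, 10.19), an adapter of Toll-like receptors.

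Glial and developmental genes with rat 7 apart were Gjb6 (10.91, nearest other 10.10), Timp1 (9.85, 11.65), Bmp4 (8.34, 7.32) and Id1 (9.58, 8.93). Stress and p53 genes were Fas (7.81, 8.88), Mdm2 (10.71, 11.12), Mt1 (12.19, 12.76), Mt2A (12.20, 13.28), Angptl4 (10.53, 11.74) and Nfe2l2 (10.74, 11.31), and for Zfp36l1 rat 7 lay above the others (12.79, 12.25). Its mean list levels stood apart for GABA interneurons (10.68, 10.38), reactive astrocyte genes (8.76, 9.23), microglia (8.74, 8.37), neutrophils (5.88, 7.11), monocytes (7.57, 8.95) and T, NK and B cells (5.81, 6.11).

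Among the untreated rats, rat 3 was high for Plac8 (7.09, nearest other 6.43), Des (8.04, 7.64), the striatal list (10.59, 9.55) and the neutrophil list (5.95, 5.69). Rat 1 was high for Zfp36 (7.32, 6.83) and low for Ttr (7.83, 14.39) and for the ependyma and choroid plexus list (6.68, 8.18).

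The response of brain differed from that of tumor, by the limma contrast, in 23 of the genes named. Besides those given in the report (Gbp2 4.74, Timp1 4.13, Tubb6 2.76, Irf8 1.67, Phlda3 1.45, Cdkn1a 1.38, Abcb1a −2.05 and Emcn −1.12, as differences of log2 fold changes), it was more positive in brain for Tgm2 (2.42, adjusted p = 4.54e-06), Irf1 (2.39, 0.000161), Ifitm3 (2.27, 0.000663), Cebpd (1.90, 6.53e-05), Nfkbia (1.25, 0.00301) and Adm (1.19, 0.00329), each called in all 11 fits that left out 1 rat.

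For 9 more genes the call of the difference was lost in at least 1 of those fits. They were Fas (1.65, adjusted p = 0.013, lost without rats 2, 6 or 8), Mt1 (1.61, 0.014, lost without rats 2, 4, 6, 8 or 10), Mt2A (1.46, 0.0106, lost without rats 2 or 6), Arpc1b (1.35, 0.013) and Msn (1.23, 0.00993), both lost without rat 1, and Birc3 (1.31, 0.0202, lost without rats 2, 6, 8, 9 or 10). Nfe2l2 (1.03, 0.0183) was lost without rats 1, 2, 3, 6, 8 or 9, and Aen (0.74, 0.026) without rats 1, 2, 3, 4, 6, 8, 9 or 10. Adamts1 (1.45, 0.0437) was lost in all but the fits without rats 5 or 7 and with the rat as a replicate block (adjusted p = 0.0789).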

How the results depend on the processing

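The 1272 probesets called became 2598 with array weights, 251 within the labelling group with a steep 3′ gap (rats 2, 3, 4, 6, 7 and 8), 732 at an FDR of 1%, 779 among probesets above the median level, 843 with probesets of a gene averaged, and 989 to 1986 without 1 rat, the highest without rat 7. Settings added after seeing the data gave 2190 without rats 3 and 7, 1859 without rats 1 and 7 and 2015 with the striatal level as a covariate. SAM called 1626 probesets. Of the calls 69.8% were higher, against 57% with array weights, 87.6% in the steep group, 59.7% with the striatal covariate and 59.8% without rats 1 and 7; the cause was not tested. Lists with at least 1 call numbered 60, and 36 in the steep group. The tissue difference passed in 145 probesets, in 205 with the rat as a replicate block, in 216 with the rat as a random replicate block, and in 68 to 261 without 1 rat. Its calls with a more positive response in contralateral brain numbered 125 (59 to 225 without 1 rat) and in tumor 20 (9 to 36). Of 102 called genes named with values, 50 kept their call in every setting that tested them, and 51 lost it within the steep group of 3 untreated and 3 MRT rats. Ttr, not called, turned to −1.08 within the steep group (adjusted p = 0.0225), where rat 1 is absent. Faint signals limit what can be said: 8 of 18 T, NK and B cell genes and 8 of 25 coagulation genes lay below the 25th percentile of signals.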
